A study of Homo sapiens with 16 samples.

Results

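Lymphotoxin alpha, lymphotoxin beta, TNF and their receptors were followed as a set of 6 genes, chosen by name: the ligands LTA, LTB and TNF and the receptors LTBR, TNFRSF1A and TNFRSF1B. They are 6 of the 59081 genes in the expression table. LTA was picked because its mRNA was already known to be far higher with both compounds in these data, and LTB and TNF were added as its neighbours on the chromosome. LTA's levels are therefore given as a description, without a test, whereas the other members were tested. The members and the gene lists used below were chosen with earlier results of these data known. Their tests and counts are therefore not independent of that choice. Of the 6 genes, 5 passed the filter on low counts and were among the 20446 genes tested. TNFRSF1B did not.

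The cells were U2OS, a human osteosarcoma line, held for 48 h without serum to make them quiescent and treated for the last 24 h. Harmine hydrochloride (10 µM) was set against its vehicle water, and INDY (25 µM) against its vehicle DMSO. Both are small-molecule inhibitors of the kinase DYRK1A, which promotes assembly of the DREAM repressor complex of quiescent cells. Each of the 4 groups had 4 libraries, made with a stranded poly(A) kit and read as pairs of 100 bases, with 44301910 to 65889667 estimated counts per library. All groups share the one cell line, the serum withdrawal and the culture scheme. The sources used here do not say whether the replicates were separate cultures, and p-values accordingly cover only the spread between libraries, which may be technical. The compounds were given at different doses in different vehicles, so a difference between their effects cannot be told apart from a difference in dose or vehicle.

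Libraries of 1 group were not all alike. On the third principal component of log2 CPM (counts scaled to the size of each library), which held 4.81% of the variance, water replicates 1 and 4 scored 26.6 and 34.6 and water replicates 2 and 3 scored 4.35 and 3.94. On the same component INDY replicates 1 and 3 scored 8.14 and 13.2, and INDY replicates 2 and 4 scored -11.6 and -14.8. Effects of the compounds on the members are in most cases also given without these libraries. Fold changes of all other genes rest on all 16 libraries. Of the osteoblast and mesenchymal markers, 5 of 6 passed the filter, and their summed level was 3370 to 3470 CPM with harmine, 2760 to 2970 CPM with water, 3180 to 3580 CPM with INDY and 2990 to 3220 CPM with DMSO. Most of this sum was VIM, which encodes vimentin, at 2280 CPM with harmine, 1960 CPM with water, 2750 CPM with INDY and 2260 CPM with DMSO. With harmine 3 of the 5 rose (RUNX2, SPARC and VIM) and 2 fell (ALPL and COL1A1), and with INDY VIM rose and the other 4 fell, with a median log2 fold change of -0.436 and the largest fall in ALPL, the bone alkaline phosphatase (-2.29, adjusted p = 2.66e-12). Of all genes tested, 24.9% rose and 22.8% fell with harmine at an adjusted p under 0.01, and 33.2% and 33.4% with INDY. COL1A2, a chain of type I collagen, was under 0.2 CPM in all 16 libraries.

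Lymphotoxin alpha and TNF are cytokines of the TNF superfamily that act as trimers. Secreted lymphotoxin alpha trimers, like TNF, bind the receptors encoded by TNFRSF1A and TNFRSF1B, whereas lymphotoxin alpha and beta together form a membrane-bound heterotrimer that binds the lymphotoxin beta receptor, encoded by LTBR. TNFRSF1A drives the canonical NF-kB pathway and, under some conditions, cell death, and LTBR also drives the non-canonical NF-kB pathway through the kinase NIK. The ligands are known mainly from lymphocytes and, for TNF, macrophages, whereas LTBR and TNFRSF1A are found on many stromal and epithelial cells.

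The 3 ligand genes lie side by side in the major histocompatibility complex. On GRCh38 (GENCODE 44), LTA spans chr6:31572054-31574324 on the plus strand. TNF starts 1240 bp after it, at chr6:31575565-31578336, on the same strand. LTB lies a further 2188 bp on, at chr6:31580525-31582522 on the minus strand. TNFRSF1A (chr12:6328757-6342114, minus strand) and LTBR (chr12:6375045-6391571, plus strand) are also neighbours, 32930 bp apart, and TNFRSF1B lies at chr1:12166991-12209228 on the plus strand. The identifiers that the table gives for LTA, LTB and TNF are not those of the primary assembly genes in GENCODE 44, so these genes were matched by symbol. None of the 100-nt stretches of the 6 genes' transcripts occurred in a transcript of another gene. A long non-coding RNA annotated on the opposite strand overlaps the start of LTA, SCNN1A overlaps LTBR on the opposite strand, and whether counting used the strand is not stated.

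The promoters of the ligand genes are shown because these neighbours moved in different directions. Each line gives 300 bases of RefSeq sequence on GRCh38.p14, 5′ to 3′ on the gene's own strand, with 250 bases before an annotated start and 50 after it. RefSeq gives LTA 2 such windows, at chr6:31571849-31572148 and chr6:31572039-31572338. The TNF window is chr6:31575315-31575614 and the LTB window is chr6:31582376-31582675 on the minus strand. RefSeq also gives LTB a second window, chr6:31582375-31582674, which is shifted by 1 base and not printed. Capitals mark matches to the motifs searched.
LTA, first start: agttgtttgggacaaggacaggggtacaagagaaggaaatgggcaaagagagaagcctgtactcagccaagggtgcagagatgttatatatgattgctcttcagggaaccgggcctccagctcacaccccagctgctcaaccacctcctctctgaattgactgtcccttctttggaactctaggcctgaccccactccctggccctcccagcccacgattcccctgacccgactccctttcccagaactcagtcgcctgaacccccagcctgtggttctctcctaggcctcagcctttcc
LTA, second start: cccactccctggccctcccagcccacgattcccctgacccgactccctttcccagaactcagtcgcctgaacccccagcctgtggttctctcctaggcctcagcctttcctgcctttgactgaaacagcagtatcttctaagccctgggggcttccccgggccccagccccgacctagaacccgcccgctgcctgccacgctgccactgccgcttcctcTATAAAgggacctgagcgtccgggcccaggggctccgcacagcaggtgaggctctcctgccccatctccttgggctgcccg
TNF: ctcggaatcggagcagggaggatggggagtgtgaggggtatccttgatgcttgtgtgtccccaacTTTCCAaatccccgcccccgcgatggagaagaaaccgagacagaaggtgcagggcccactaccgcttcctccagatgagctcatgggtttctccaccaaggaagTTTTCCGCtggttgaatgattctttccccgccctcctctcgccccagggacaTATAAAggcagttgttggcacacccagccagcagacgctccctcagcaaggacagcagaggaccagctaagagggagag
LTB: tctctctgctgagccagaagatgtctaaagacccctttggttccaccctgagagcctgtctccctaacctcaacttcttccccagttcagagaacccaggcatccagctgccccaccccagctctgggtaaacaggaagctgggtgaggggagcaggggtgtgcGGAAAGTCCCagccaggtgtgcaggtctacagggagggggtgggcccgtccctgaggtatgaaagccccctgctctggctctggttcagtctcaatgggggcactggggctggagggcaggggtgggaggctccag

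The motifs searched on both strands were NF-kB (GGG, any 2 bases, then TTTCC), AP-1 (TGANTCA), NFAT (TGGAAA), CRE (TGACGT), the TATA box (TATAAA) and E2F (TTTNNCGC). Of 35116 RefSeq promoter windows of this length, 1.91% held the NF-kB motif, 7.71% AP-1, 20.7% NFAT, 7.98% CRE, 11.5% the TATA box and 6.89% E2F. The first LTA window held none of them. The second LTA window held a TATA box at position -31, counted from the start in bases. The TNF window held a TATA box at position -29, an E2F match at -81 and an NFAT match on the opposite strand at -185. The LTB window held an NF-kB match on the opposite strand at position -86, which is -87 in the second window. The windows of LTBR, TNFRSF1A and TNFRSF1B held no match. These are letter matches in short windows and nothing about binding was measured. The NF-kB pattern allows only TTTCC after its 2 free bases, and sites with other letters there were not searched. A window without a match may hold such a site.

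LTA, whose product is the one subunit shared by the secreted and the membrane-bound lymphotoxins, was far higher with both compounds. It measured 5.15, 5.23, 5.22 and 5.02 CPM in the harmine libraries, against 0.894, 0.698, 0.626 and 1.16 CPM in the water libraries. With INDY it measured 23.5, 24.0, 30.4 and 24.1 CPM, against 0.601, 0.716, 0.531 and 0.667 CPM with DMSO. Every treated library lay above every vehicle library, the harmine libraries lay close together and INDY replicate 3 stood above the other INDY libraries. Treated libraries lay above all vehicle libraries for 28.6% of genes tested with harmine and 33.4% with INDY, and nothing is read from this for LTA, which was chosen on these values. The deposited counts behind these levels were 225 to 278 with harmine, 42 to 66 with water, 1130 to 1893 with INDY and 31 to 37 with DMSO.

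The mean CPM of LTA was 6.11 times that of water with harmine and 40.6 times that of DMSO with INDY. On the fitted scale the log2 fold changes were 2.63 (SE 0.139) and 5.35 (SE 0.135), which ranked LTA at place 53 among the rises with harmine and at place 25 among the rises with INDY, of 20446 genes. Without water replicates 1 and 4, whose LTA levels were above those of water replicates 2 and 3, the harmine log2 fold change was 2.96. Without INDY replicates 1 and 3 the INDY log2 fold change was 5.27.

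LTB, the membrane-anchoring partner of LTA in the heterotrimer, moved the other way and fell with both compounds. Its levels were 5.40, 4.36, 5.79 and 4.88 CPM in the harmine libraries, against 16.1, 12.6, 12.1 and 19.7 CPM in the water libraries. In the INDY libraries they were 1.14, 1.38, 1.35 and 1.35 CPM, against 11.0, 7.58, 7.98 and 8.01 CPM in the DMSO libraries. In both comparisons all treated libraries lay below all vehicle libraries, as they did for 26.4% of genes with harmine and 34.1% with INDY. Mean LTB was 2.96-fold lower with harmine (log2 fold change -1.56, SE 0.146, adjusted p = 3.66e-08 by edgeR's quasi-likelihood test) and 6.64-fold lower with INDY (-2.73, SE 0.178, adjusted p = 8.68e-11). Among all genes tested, 22.8% were lower with harmine and 33.4% were lower with INDY at the threshold used, an adjusted p under 0.01.

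The fall of LTB was larger with INDY than with harmine, by -1.17 on the log2 scale (SE 0.235, adjusted p = 0.00026). A difference in this direction was called for 28.1% of all genes. By edgeR the LTB difference was -1.46 without water replicates 1 and 4 (adjusted p = 5.69e-06). It was -1.09 without INDY replicates 1 and 3 (adjusted p = 0.00477). LTB was also the member that differed between the vehicles, with a log2 difference of -0.80 for DMSO against water (SE 0.138, adjusted p = 0.00136), where 4.29% of all genes differed (1.58% higher and 2.71% lower with DMSO). Every DMSO library lay below every water library, as for 10.2% of genes. Without water replicates 1 and 4, 15 genes were higher and 106 lower of 21161 tested, against 323 and 554 of 20446 with all libraries. In that fit, which leaves out the highest LTB levels, the vehicle difference was -0.51 (adjusted p = 0.0481) and missed the threshold, and the fall with harmine was -1.27 (adjusted p = 4.1e-07). Without INDY replicates 1 and 3 the fall with INDY was -2.67 (adjusted p = 3.05e-08).

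TNF, the family's best known inflammatory cytokine, was near the limit of detection in every group, with 4 to 25 counts per library. It measured 0.240, 0.245, 0.401 and 0.449 CPM with INDY, against 0.179, 0.179, 0.0685 and 0.0861 CPM with DMSO. The groups did not overlap, as for 33.4% of all genes in this direction. The log2 fold change with INDY was 1.36 (SE 0.354, adjusted p = 0.0018), in a comparison where 33.2% of all genes rose. Without INDY replicates 1 and 3 it was 1.40 (adjusted p = 0.00799). TNF was at or above the filter's level of 0.191 CPM in 4 INDY libraries, 1 harmine library, 3 water libraries and no DMSO library.

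With harmine TNF measured 0.114, 0.113, 0.177 and 0.219 CPM, against 0.233, 0.171, 0.238 and 0.316 CPM with water. These groups overlapped, and the log2 difference of -0.60 (SE 0.359, adjusted p = 0.157) did not pass the test. Its interval of 2 SE ran from -1.32 to 0.118, so a fall of more than 2-fold was not excluded at this depth. The INDY effect exceeded the harmine effect by 1.96 on the log2 scale (SE 0.505, adjusted p = 0.00211), but without water replicates 1 and 4 this difference was 1.74 and missed the threshold (adjusted p = 0.0155). With all libraries, a difference in this direction was called for 26.4% of all genes.

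**Figure D1:**
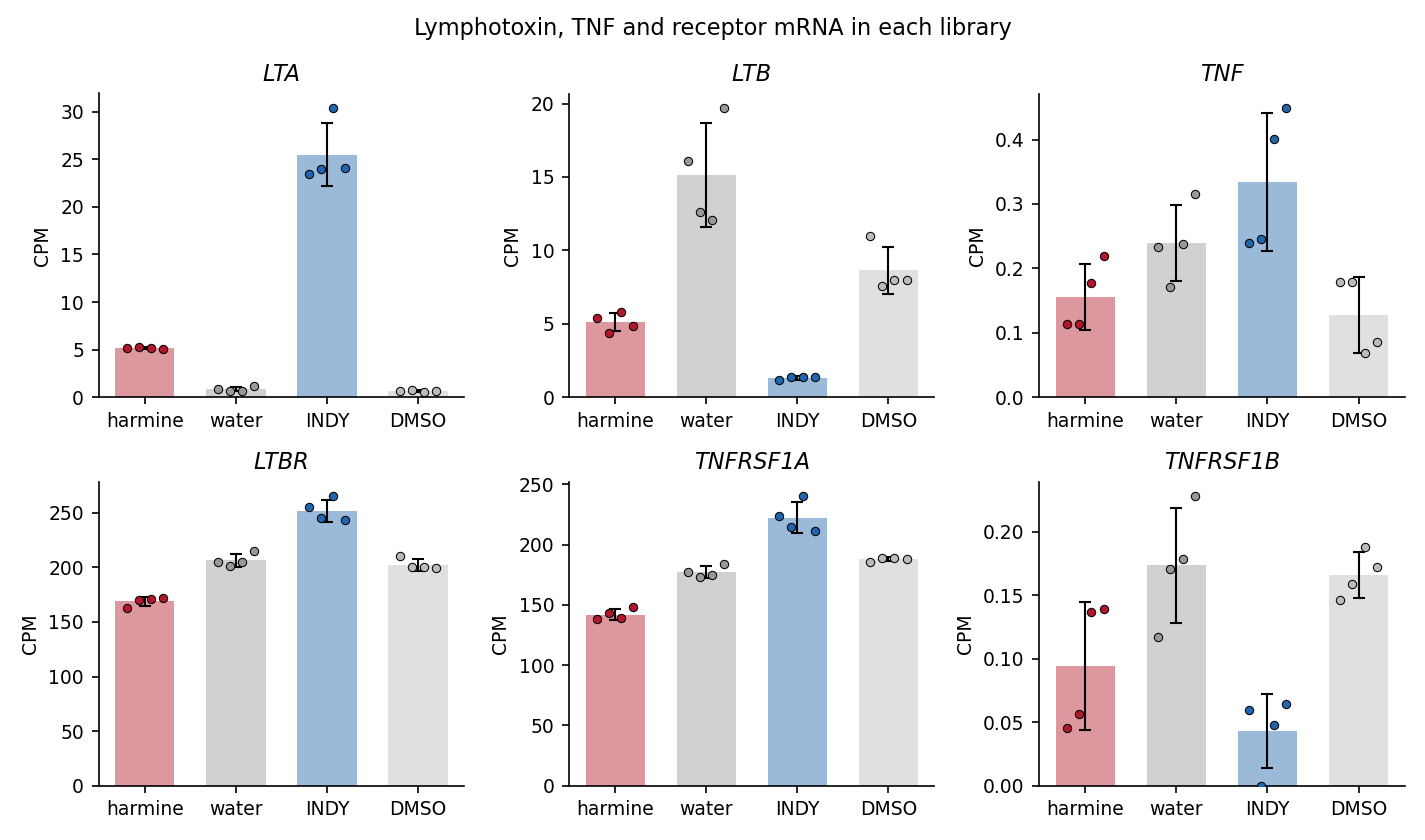
CPM of each member in each library (points), with the group mean (bar, from 0) and SD (line) for harmine, water, INDY and DMSO, 4 libraries each; each panel has its own axis. LTA was higher and LTB lower in every treated library than in every library of its vehicle, and LTBR and TNFRSF1A were lower with harmine and higher with INDY.

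LTBR and TNFRSF1A, the receptors for the lymphotoxin heterotrimer and for TNF, were abundant in all 16 libraries and moved in opposite directions with the compounds. LTBR measured 163, 170, 171 and 172 CPM with harmine, against 205, 201, 205 and 215 CPM with water. In the INDY libraries it measured 255, 245, 265 and 243 CPM, against 210, 200, 200 and 199 CPM in the DMSO libraries. Harmine libraries thus all lay below water libraries and INDY libraries all above DMSO libraries. The log2 fold changes were -0.29 with harmine (SE 0.0321, adjusted p = 3.84e-07) and 0.32 with INDY (SE 0.032, adjusted p = 4.4e-08).

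TNFRSF1A followed the same order. It measured 138, 143, 139 and 148 CPM with harmine, against 177, 173, 175 and 184 CPM with water. With INDY it measured 224, 215, 240 and 211 CPM, against 186, 189, 189 and 188 CPM with DMSO. Again neither pair of groups overlapped. Groups that did not overlap in either direction made up 55.1% of genes with harmine and 67.5% with INDY. The log2 fold changes were -0.32 with harmine (SE 0.0359, adjusted p = 4.17e-07) and 0.24 with INDY (SE 0.0356, adjusted p = 5.52e-06). Without INDY replicates 1 and 3, which held the highest levels of both receptors, the rises with INDY were 0.27 for LTBR (adjusted p = 4.67e-07) and 0.18 for TNFRSF1A (adjusted p = 4.3e-05), and without water replicates 1 and 4 the falls with harmine were -0.26 for LTBR (adjusted p = 1.94e-05) and -0.29 for TNFRSF1A (adjusted p = 2.67e-05).

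The effects of the compounds differed for both receptors, by 0.60 for LTBR (SE 0.0453, adjusted p = 1.85e-09) and by 0.56 for TNFRSF1A (SE 0.0506, adjusted p = 2.02e-08), INDY minus harmine on the log2 scale. A difference of this kind was called for 54.5% of all genes. Between DMSO and water the log2 differences were -0.03 for LTBR (adjusted p = 0.644) and 0.09 for TNFRSF1A (adjusted p = 0.132), and neither passed. All DMSO libraries lay above all water libraries for TNFRSF1A, as for 9.76% of genes (19.9% in either direction). These receptor changes were small beside those of the ligands, with means 1.22-fold lower for LTBR with harmine, and they were called in a table where 47.7% of genes changed with harmine and 66.6% with INDY.

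TNFRSF1B, the receptor found mainly on leukocytes and endothelium, had 0 to 13 counts per library and failed the filter. It measured 0.0458, 0.0564, 0.137 and 0.139 CPM with harmine, against 0.117, 0.171, 0.179 and 0.228 CPM with water, and these groups overlapped. With INDY it measured 0.06, 0, 0.0482 and 0.0641 CPM, against 0.146, 0.159, 0.188 and 0.172 CPM with DMSO. These groups did not overlap, with INDY below DMSO, as for 34.1% of the genes tested. A two-sided exact permutation test over the libraries gave p = 0.0857 for harmine and p = 0.0286 for INDY, the smallest p that 4 against 4 libraries allow. After Benjamini-Hochberg adjustment over the 3 comparisons made for this gene, these were 0.129 and 0.0858 by the same exact test. When all genes with any count were fitted in edgeR, its log2 difference was -1.93 with INDY (adjusted p = 0.00327) and -0.87 with harmine (adjusted p = 0.185). In that fit 7176 of 37914 genes were called lower with INDY. The highest TNFRSF1B counts of any INDY library were at the floor of 3 counts.

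**Figure D2:**
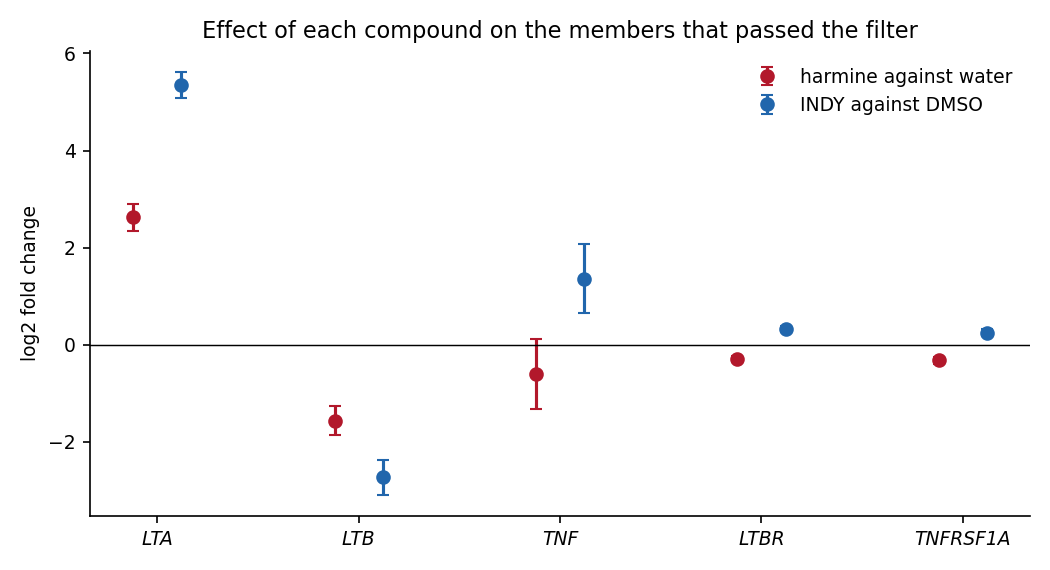
Log2 fold change of the 5 members that passed the filter, harmine against water (red, left point of each pair) and INDY against DMSO (blue, right point), with lines of 2 SE either side. LTA lies at 2.63 and 5.35, LTB at -1.56 and -2.73, and TNF, LTBR and TNFRSF1A have negative values with harmine and positive ones with INDY, the harmine interval of TNF crossing 0.

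Levels of different genes were compared per length, as mean CPM per kb of the MANE Select transcript. LTBR was the highest member in every group, at 79.2 with harmine, 96.7 with water, 118 with INDY and 94.9 with DMSO. TNFRSF1A came next, at 65.5 with harmine, 81.7 with water, 103 with INDY and 86.7 with DMSO. The ratio of LTBR to TNFRSF1A was above 1 in all 16 libraries and stayed within 1.07 to 1.25, although both genes changed with each compound.

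The order of the ligands differed with INDY. LTB was the highest ligand in the harmine, water and DMSO groups, at 5.72, 16.9 and 9.68 CPM per kb in that order, and LTA was next, at 3.64, 0.596 and 0.444 CPM per kb. In the INDY group LTA was the highest ligand, at 18 CPM per kb, and LTB was next, at 1.46. The ratio of LTA to LTB per kb was 0.569 to 0.755 in the harmine libraries, against 0.0327 to 0.0371 in the water libraries. In the INDY libraries it was 11.0 to 14.2, against 0.0344 to 0.0595 in the DMSO libraries. LTA mRNA was thus below LTB mRNA in every harmine, water and DMSO library and above it in every INDY library. In harmine libraries this order rests on the division by length, since the ratio of the LTA to the LTB count itself was 0.903 to 1.2 there. LTA's part in this ratio was used to choose the gene, so no test is given.

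TNF and TNFRSF1B were the lowest members throughout. TNF stood at 0.0928 CPM per kb with harmine, 0.143 with water, 0.199 with INDY and 0.0763 with DMSO. TNFRSF1B stood at 0.0257, 0.0471, 0.0117 and 0.0451 CPM per kb in the same groups. Their libraries overlapped in the DMSO group, so the order of these neighbours was not separated there. Across libraries the ratio of LTA to TNF per kb was 27.2 to 54.9 with harmine, 3.11 to 4.85 with water, 63.8 to 116 with INDY and 3.99 to 9.19 with DMSO.

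**Figure D3:**
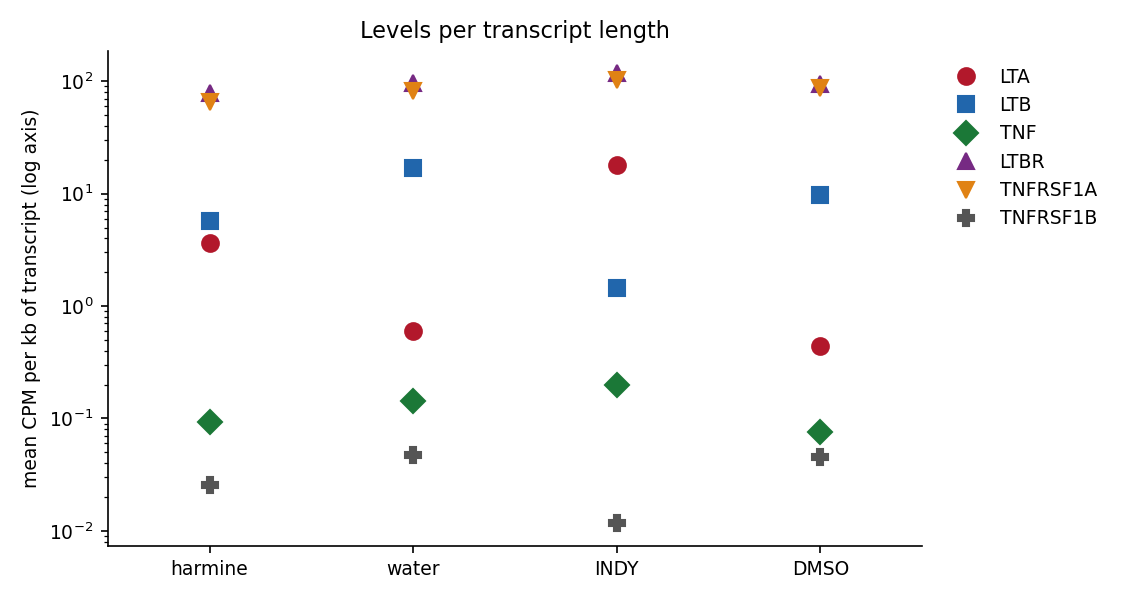
Mean CPM per kb of transcript (log axis) of the 6 members in each group of 4 libraries. LTBR and TNFRSF1A lie between 65.5 and 118 in every group, TNF and TNFRSF1B below 0.2, and LTA lies above LTB with INDY only.

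Across the 16 libraries log2 CPM of LTBR and TNFRSF1A had a Pearson r of 0.971, and of 0.794 once the group means were taken out. LTA and LTB had an r of -0.921 over all libraries and of 0.566 within groups, where water replicates 1 and 4 were high for both. These are descriptions over libraries that share groups and depth. The 5 named genes whose pattern was closest to that of LTA, among 13984 compared, were SAT1 (r = 0.997), C15orf40 (0.995), TUBGCP3 (0.995), CPSF7 (0.994) and EFCAB12 (0.993), over 16 libraries. SAT1, which encodes the rate-limiting acetyltransferase of polyamine catabolism, measured 48.5 CPM with harmine and 24.0 CPM with water, and 95.3 CPM with INDY and 21.7 CPM with DMSO. EFCAB12 measured 7.59 CPM with harmine and 2.97 CPM with water, and 15.9 CPM with INDY and 2.20 CPM with DMSO. Within groups, the r of these 5 genes with LTA was lower, at 0.435 to 0.813.

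The opposite changes of LTA and LTB were set beside those of the genes around them. Within 100 kb of LTA, 33 other genes besides TNF and LTB are annotated, 29 are in the table and 14 were tested. With harmine 5 of these 14 were higher and 2 lower, beside 24.9% and 22.8% of all genes, and with INDY 6 were higher and 2 lower, beside 33.2% and 33.4%. Their log2 fold changes ran from -0.90 to 1.12 with harmine and from -1.52 to 1.86 with INDY. NFKBIL1, an NF-kB inhibitor-like gene next to LTA and named for its place, had log2 differences of -0.07 with harmine (adjusted p = 0.245) and 0.03 with INDY (adjusted p = 0.652).

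LST1, a leukocyte-associated gene on the far side of LTB, rose with harmine, at 0.534 CPM against 0.244 CPM with water (log2 fold change 1.12, adjusted p = 0.0014). With INDY it was at 0.140 CPM, against 0.217 CPM with DMSO, and did not pass (adjusted p = 0.115). HCP5, a long non-coding RNA of the complex, fell with INDY, to 0.596 CPM against 1.71 CPM with DMSO (-1.52, adjusted p = 7.35e-08). The readthrough gene ATP6V1G2-DDX39B rose with INDY (1.07, adjusted p = 8.86e-06), as did AL662899.2 (1.86, adjusted p = 2.58e-09); a readthrough shares exons with its component genes, so its count is uncertain.

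Around the receptor pair, 14 other genes are annotated within 100 kb and 8 were tested. With harmine 2 were higher and 2 lower, and with INDY 3 were higher and 4 lower, beside the same shares of all genes. TAPBPL, a tapasin-related gene of antigen presentation, fell with INDY, to 8.81 CPM against 19.7 CPM with DMSO (-1.16, adjusted p = 2.89e-11). AC005840.3, a processed pseudogene at a low level, also fell with INDY (-2.22, adjusted p = 4.98e-05). SCNN1A, which overlaps LTBR on the opposite strand, had a log2 difference of 0.06 with harmine (adjusted p = 0.602) and fell with INDY (-0.77, adjusted p = 1.59e-06), where LTBR rose.

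**Figure D4:**
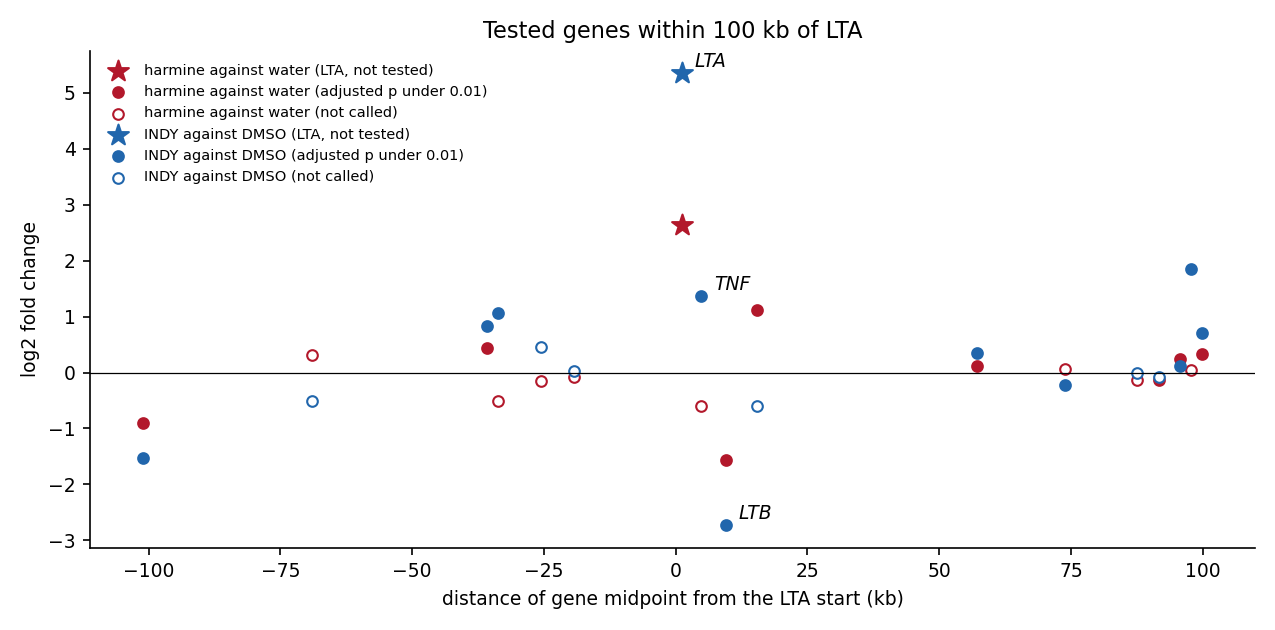
Log2 fold change of each tested gene within 100 kb of LTA against the distance of its midpoint from the LTA start in kb, for harmine against water (red) and INDY against DMSO (blue). Filled circles passed an adjusted p under 0.01, open circles did not, and stars mark LTA, which was not tested; LTA stands at 2.63 and 5.35 with LTB at -1.56 and -2.73 beside it.

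The wider pathway was described by 6 lists that hold 129 genes, of which 107 were tested. With harmine 20 of the 107 were higher and 42 lower, beside 24.9% and 22.8% of all genes. With INDY 39 were higher and 41 lower, beside 33.2% and 33.4% of all genes.

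Of 15 other TNF superfamily ligands, 8 were tested. None rose with either compound, beside 24.9% of all genes with harmine and 33.2% with INDY. With harmine 2 fell, beside 22.8% of all genes (median log2 fold change -0.0966, beside 0.0151 for all genes). With INDY 6 fell, beside 33.4% of all genes (median -0.728, beside -0.00799 for all genes). TNFSF15, a ligand of the death receptor DR3, fell with harmine, to 8.97 ± 0.424 CPM against 21.5 ± 7.03 CPM with water (SD, n = 4 each; log2 fold change -1.26, adjusted p = 7.31e-05 by edgeR). It was also lower with DMSO than with water (-0.93, adjusted p = 0.009). TNFSF10, which encodes the death ligand TRAIL, fell with harmine (-0.75, adjusted p = 0.00874) and with INDY (-2.70, adjusted p = 1.07e-07). Its mean level was below 1 CPM in every group, and in 7 of 8 fits that left out 1 harmine or water library only 1 ligand was lower with harmine. TNFSF4, the OX40 ligand, fell with INDY, to 0.819 ± 0.306 CPM against 2.15 ± 0.175 CPM with DMSO (SD, n = 4 each; adjusted p = 1.94e-06 by edgeR).

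Of 26 other receptors of the superfamily, 17 were tested. With harmine 5 rose and 6 fell (median 0.0726), beside 24.9% and 22.8% of all genes. With INDY 9 rose and 6 fell (median 0.336), beside 33.2% and 33.4% of all genes. TNFRSF13C, the receptor for the B cell survival factor BAFF, had the largest rise with harmine, at 13.0 ± 0.847 CPM against 3.15 ± 0.677 CPM with water (SD, n = 4 each; 2.04, adjusted p = 3.47e-10 by edgeR). TNFRSF11B, which encodes the decoy receptor osteoprotegerin, rose with harmine (0.77, adjusted p = 2.75e-05) and fell with INDY (-1.20, adjusted p = 7.14e-08). TNFRSF9, the costimulatory receptor 4-1BB, fell with harmine (-1.77, adjusted p = 5.1e-12), as did TNFRSF12A, the receptor for TWEAK (-0.66, adjusted p = 1.39e-08). With INDY the decoy receptor TNFRSF10C rose (0.81, adjusted p = 9.25e-07) together with EDA2R, a receptor for ectodysplasin (0.75, adjusted p = 1.53e-09). The decoy receptor TNFRSF10D fell with INDY (-2.85, adjusted p = 0.000178), at mean levels under 0.3 CPM in all groups.

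Of 28 genes of receptor-proximal signalling, 27 were tested. With harmine 8 rose and 9 fell, beside 24.9% and 22.8% of all genes. With INDY 10 rose and 9 fell, beside 33.2% and 33.4% of all genes. Their medians were 0.0275 with harmine and 0.0402 with INDY. SHARPIN, a subunit of the linear ubiquitin ligase, rose with harmine (0.54, adjusted p = 5.83e-09), and so did TAB1, an adaptor of the kinase TAK1 (0.33, adjusted p = 7.44e-06). BIRC3, the ubiquitin ligase cIAP2, fell with harmine, to 158 ± 5.59 CPM against 316 ± 8.19 CPM with water (SD, n = 4 each; -1, adjusted p = 4.03e-12 by edgeR). It also fell with INDY (-0.49, adjusted p = 1.64e-08). MLKL, the effector of necroptosis, fell with harmine (-0.93, adjusted p = 6.17e-08). The ubiquitin ligase TRAF6 rose with INDY, at 32.6 ± 4.14 CPM against 12.6 ± 0.905 CPM with DMSO (SD, n = 4 each; 1.37, adjusted p = 1.65e-11 by edgeR). CFLAR, the caspase-8 regulator cFLIP, also rose with INDY (0.77, adjusted p = 6.73e-11), and TRAF3, which restrains NIK, fell (-0.55, adjusted p = 2.21e-10).

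All 15 IKK, NF-kB and NF-kB inhibitor genes were tested. With harmine none rose and 9 fell (median -0.216), beside 24.9% and 22.8% of all genes. By contrast 8 rose and 1 fell with INDY (median 0.23), beside 33.2% and 33.4% of all genes. The difference between the effects was called higher with INDY for 10 of the 15 and lower for 1 (median 0.446), beside 26.4% and 28.1% of all genes. The 2 largest falls with harmine were those of the inhibitors NFKBIA, at 40.5 ± 1.21 CPM against 65.3 ± 3.99 CPM with water (SD, n = 4 each; -0.69, adjusted p = 2.15e-10 by edgeR), and NFKBIE (-0.50, adjusted p = 5.3e-09). With INDY the inhibitor gene NFKBIB rose (0.70, adjusted p = 1.29e-08), and so did RELA, which encodes the p65 subunit, at 208 ± 10.2 CPM against 153 ± 0.878 CPM with DMSO (SD, n = 4 each; 0.45, adjusted p = 2.2e-09 by edgeR). TNFAIP3, the inhibitory ubiquitin-editing enzyme A20, was the gene that fell with INDY (-0.74, adjusted p = 2.18e-11). The subunit gene NFKB1 fell with harmine (-0.31, adjusted p = 6.08e-07) and rose with INDY (0.38, adjusted p = 1.43e-08), as did RELB (-0.22, adjusted p = 1.92e-06, and 0.23, adjusted p = 3.22e-07); both were chosen after their values were seen.

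Of 27 genes known to respond to TNF or lymphotoxin, 22 were tested. With harmine 3 rose and 11 fell (median -0.438), beside 24.9% and 22.8% of all genes. With INDY 5 rose and 12 fell (median -0.563), beside 33.2% and 33.4% of all genes. The chemokine gene CXCL10 had the largest fall with each compound, at mean levels under 0.4 CPM in every group. Its log2 fold change was -3.01 with INDY (adjusted p = 0.000831) and -3.37 with harmine, where it passed the filter only through the water libraries and no p is given. It is nevertheless 1 of the 11 response genes, and of the 42 list genes, counted as lower with harmine. VCAM1, an adhesion molecule, fell with harmine, to 0.895 ± 0.138 CPM against 2.81 ± 0.0949 CPM with water (SD, n = 4 each; -1.65, adjusted p = 2e-08 by edgeR). The cytokine gene IL6 fell with INDY (-2.39, adjusted p = 1.26e-06). The genes that rose with harmine were led by the chemokine CCL20 (0.72, adjusted p = 1.14e-05) and PLAU, which encodes urokinase (0.51, adjusted p = 0.000359), and both fell with INDY (CCL20 -0.69, adjusted p = 2.08e-05, and PLAU -0.93, adjusted p = 2.05e-07).

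CXCL13, the B cell chemokine whose expression in lymphoid organs depends on the lymphotoxin beta receptor, was higher with INDY. It passed the filter only through the INDY libraries, so no p is given, and it is 1 of the 5 response genes counted as higher with INDY. Its counts were 16, 12, 39 and 15 in the INDY libraries and 0 in all DMSO libraries. Against a floor of 3 counts over the DMSO group, 0.0138 CPM, its pooled level was 27.9-fold higher with INDY. This is a rough bound that takes no account of the spread between libraries. CXCL13 averaged 0.0654 CPM with harmine and 0.0253 CPM with water. The early response gene IER3 also rose with INDY, at 254 ± 71.7 CPM against 139 ± 13.0 CPM with DMSO (SD, n = 4 each; 0.87, adjusted p = 1.33e-05 by edgeR).

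All 18 genes of TNF mRNA control, shedding and cleavage were tested. With harmine 4 rose and 5 fell, beside 24.9% and 22.8% of all genes. With INDY 7 rose and 7 fell, beside 33.2% and 33.4% of all genes. Their medians were 0.0199 with harmine and -0.0588 with INDY. With harmine the signal peptide peptidase SPPL2B rose (0.52, adjusted p = 1.57e-08) and its relative SPPL2A fell (-0.56, adjusted p = 1.17e-10). Among the RNA-binding proteins that control cytokine mRNA decay, ZFP36L1 rose with harmine (0.30, adjusted p = 1.75e-06) and ZC3H12A, the endonuclease Regnase-1, fell (-0.65, adjusted p = 1.53e-10). With INDY RC3H1, which encodes Roquin-1 (0.70, adjusted p = 9.48e-10), and ZFP36, which encodes tristetraprolin (0.54, adjusted p = 3.2e-05), rose. RHBDF2, a partner of the TNF sheddase ADAM17, fell with INDY, to 60.7 ± 5.32 CPM against 110 ± 1.52 CPM with DMSO (SD, n = 4 each; -0.86, adjusted p = 2.88e-12 by edgeR), and so did HNRNPD, which encodes AUF1 (-0.62, adjusted p = 3.24e-08).

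**Figure D5:**
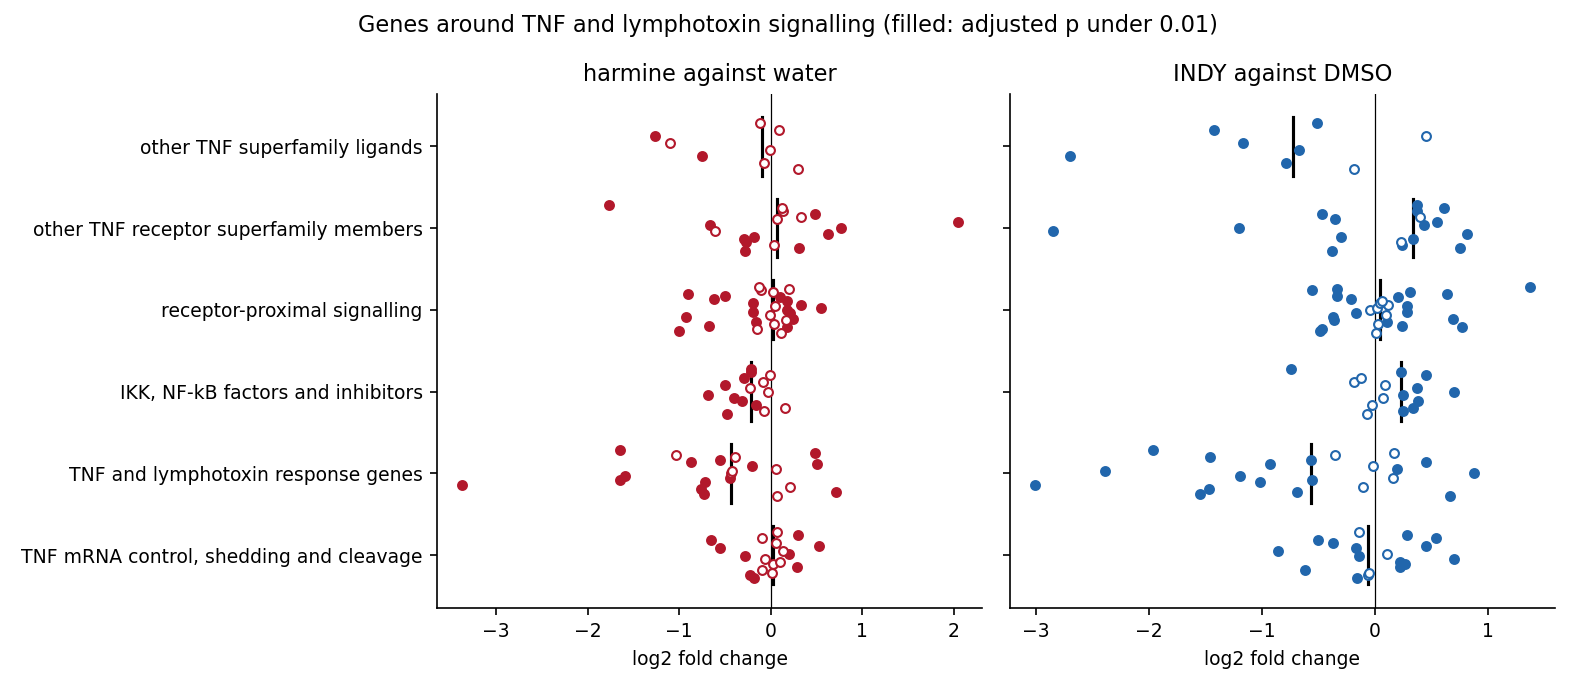
Log2 fold change of each tested gene in the 6 pathway lists (points, filled where the adjusted p was under 0.01) with the list's median (black line), for harmine against water (left) and INDY against DMSO (right); CXCL13 is left out of the points because no DMSO library had a count. The NF-kB list has a median of -0.216 with harmine and 0.23 with INDY, and the response genes have medians of -0.438 and -0.563. The filled harmine point of CXCL10 is of a gene that passed the filter only through the water libraries.

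Since the ligands are known mainly from leukocytes, markers of those cells were examined. The summed level of 12 leukocyte markers was 11.6 to 14.1 CPM with harmine, against 35.6 to 38.5 CPM with water, and 8.98 to 10.1 CPM with INDY, against 33.1 to 36 CPM with DMSO. The sum was lower with both compounds, but most of it was ITGAM, an integrin of myeloid cells. ITGAM was at 11.3 CPM with harmine and 35.5 CPM with water, and at 6.33 CPM with INDY and 33.0 CPM with DMSO. The sum therefore mainly reflects this gene, and other markers moved in different directions. The T cell markers CD3E and CD2, the B cell marker MS4A1, the natural killer marker NKG7 and the myeloid marker LYZ were each under 0.2 CPM in all 16 libraries. CD3D, another T cell receptor subunit, fell with harmine, to 0.284 CPM against 0.939 CPM with water (-1.71, adjusted p = 2.99e-06), and was at 0.742 CPM with INDY and 0.694 CPM with DMSO. PTPRC, the leukocyte common antigen CD45, fell with INDY, to 0.0201 CPM against 0.164 CPM with DMSO (-2.93, adjusted p = 0.000491), and was at 0.392 CPM with harmine and 0.281 CPM with water. CD14, a monocyte receptor, was at 1.5 CPM with INDY and 0.0664 CPM with DMSO, and CD79A, a B cell receptor subunit, at 0.415 CPM with INDY and 0.0858 CPM with DMSO. Both passed the filter only through the INDY libraries, so no p is given. GNLY, a marker that failed the filter, was at 0.216 CPM with INDY and 0.00428 CPM with DMSO. The summed epithelial markers were 3.92 to 4.04 CPM with harmine, 4.22 to 4.45 CPM with water, 2.42 to 2.58 CPM with INDY and 3.42 to 4.05 CPM with DMSO. The part of these markers in the results was not tested. All samples were cultures of the U2OS line. In bulk RNA fewer of its cells with a transcript and less of the transcript per cell cannot be told apart.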

How the data were processed

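The authors quantified reads with Salmon 1.1 on GENCODE 37 (GRCh38, genome sequence as decoy) and used tximport for gene-level sums; the submitters' processing notes also name edgeR 3.28.1. The deposited table holds estimated counts (expected counts) for 59081 genes in 16 libraries, from which the reads were not reprocessed. Estimated counts were rounded, filtered with filterByExpr (20446 genes left of 37914 with any count), scaled by TMM (factors 0.982 to 1.02) and tested in one model of the 4 groups with edgeR 4.0.16 (glmQLFit, glmQLFTest) in R 4.3.3. P-values were adjusted by Benjamini and Hochberg's method over all 20446 genes and called under 0.01. Between replicates the chi-square per gene was 2.27 to 32.4, a spread beyond counting noise. Separate libraries of the same culture can also give such a spread, so technical repeats are not excluded. Log2 CPM used a prior count of 2.

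The members and the gene lists were chosen with earlier results of these data known. Genes are named by rule: all members; per list and compound the 2 largest rises and 2 largest falls that pass; tested neighbours that pass with an absolute log2 fold change of at least 1; and the 5 genes most correlated with LTA. Outside the rule, NFKBIL1 and SCNN1A are named for their position, markers from their lists, and NFKB1 and RELB after their values were seen. Multi-copy Y_RNA genes were left out of the neighbours. Not every marker is reported here by name. Alternatives were DESeq2 1.42.0, limma 3.58.1 (voom), upper-quartile factors, other filters, an adjusted p under 0.05, a replicate block, the 8 libraries of a comparison alone and leaving out libraries. The procedure was tested on simulated data.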

Additional observations from a re-analysis of the deposited data

Results flagged for a closer look

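The levels of each member in each group were examined for a library far from the other 3, by its gap to the nearest library as a share of the group's range, with Dixon's 95% critical value of 0.829 for 4 samples. Of 24 groups examined, 4 held such a library, where chance gives about 1 in 20. LTA in INDY replicate 3 was at 30.4 CPM, with the other INDY libraries at 23.5 to 24.1 CPM (gap 0.903 of the range). LTB in INDY replicate 1 was at 1.14 CPM, with the others at 1.35 to 1.38 CPM (0.874). DMSO replicate 1 held the other 2, LTB at 11.0 CPM with the others at 7.58 to 8.01 CPM (0.875), and LTBR at 210 CPM with the others at 199 to 200 CPM (0.892). In none of these did leaving out the library change a call or a direction for the member.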

How the results depend on the processing

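Under every alternative planned, each of the 5 members that passed the main filter kept its direction and its side of the threshold wherever it could be fitted. TNFRSF1B failed that filter and is not covered by this. Fitted without a filter, it was called lower with INDY (-1.93, adjusted p = 0.00327 by edgeR). Leaving out 1 library at a time gave log2 fold changes of 2.48 to 2.82 (harmine) and 5.26 to 5.42 (INDY) for LTA and of -1.68 to -1.41 and -2.79 to -2.59 for LTB. The rise of TNF with INDY was 1.14 to 1.58 (highest adjusted p = 0.00909, edgeR). Leaving out water replicates 1 and 4 together, chosen after seeing the data, ended 2 calls: the difference between the compounds' effects on TNF (1.74, adjusted p = 0.0155) and the vehicle difference of LTB (-0.51, adjusted p = 0.0481). Deviations of same-numbered libraries had correlations of -0.0527 to 0.0868, against -0.0993 to 0.108 for libraries of different numbers. No pairing was seen in these values, but they cannot show whether the libraries were handled in pairs. A replicate block gave 4863 genes higher and 4397 lower with harmine, against 5082 and 4666 without it, and changed no call of a member; it could not be fitted for DMSO against water.

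Small list counts moved. For harmine, 1 other ligand instead of 0 was higher under DESeq2, voom, no filter, the replicate block, an adjusted p under 0.05 or without water replicate 4, and 1 instead of 2 was lower under DESeq2, voom, no filter, a minimum of 10 counts, or without any 1 harmine library or water replicate 2, 3 or 4. The NF-kB genes higher with harmine numbered 1 instead of 0 in the fit of 8 libraries, at an adjusted p under 0.05 or without water replicate 4. Those lower with INDY numbered 2 at an adjusted p under 0.05 and 3 without DMSO replicate 1. Between DMSO and water, 323 genes were higher and 554 lower, against 715 and 877 under DESeq2, 1058 and 1326 at an adjusted p under 0.05, 88 to 390 and 237 to 625 when 1 library was left out, and 15 and 106 without water replicates 1 and 4. TNF and TNFRSF1B, at 25 counts or fewer per library, are limited by depth.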
